A study of Mus musculus with 6 samples.

Results

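The genes described here are 9 members of the Six-Eya-Dach network: Six2, Six4 and Six5, Eya1 to Eya4, and Dach1 and Dach2. They were chosen by name, and their probes were found through the RefSeq transcript that each array probe is annotated with. The 9 genes had 13 probes of the 55681 on the array, 2 each for Six2 and Dach1, 3 for Dach2 and 1 for each of the others. Cells were grown from the finely cut hearts or the skinned tails of male C57/Bl6-J mice, aged 8 weeks in the sample labels and 8 to 10 weeks in the protocol. Trypsin or collagenase released the cells, which then spent 5 days on plastic. Each culture was pooled from 2 animals, and total RNA of each was hybridised to its own Cy3 array. There were 3 arrays labelled heart fibroblast and 3 labelled tail fibroblast. The labels name no treatment, genetic change or sorting in either group. In RNA of whole cultures, fewer cells of a type and less RNA per cell cannot be told apart.

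Six-family proteins are homeodomain transcription factors, Eya proteins are coactivators that bind Six-family proteins and also carry phosphatase activity, and Dach proteins are corepressors related to Ski. The network was first described in the fly eye, where Pax genes act upstream of it. In mammals it serves in the formation of kidney, skeletal muscle, inner ear and other organs, in muscle partly through the MEF3 sequence in the promoters of target genes.

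Promoters are shown for Six2 and Six4, the Six-family members called in opposite directions between heart and tail cultures, because one of them carries the sequence that Six-family proteins bind. Each is the 250 bases before a start site on the minus strand, from RefSeq (GRCm38.p6). The Six2 window is chr17:85688255-85688504, and the Six4 window is chr12:73113246-73113495, before the more downstream of the gene's start sites in the table. Capitals mark matches to the MEF3 letters TCAGGTTTC, to CCAAT or to TATAAA on either strand, which do not overlap in these windows.
Six2: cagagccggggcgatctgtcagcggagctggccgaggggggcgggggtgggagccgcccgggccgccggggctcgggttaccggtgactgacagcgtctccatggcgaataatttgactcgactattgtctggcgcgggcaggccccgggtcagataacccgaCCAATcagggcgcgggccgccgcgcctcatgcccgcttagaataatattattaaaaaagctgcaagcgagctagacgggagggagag
Six4: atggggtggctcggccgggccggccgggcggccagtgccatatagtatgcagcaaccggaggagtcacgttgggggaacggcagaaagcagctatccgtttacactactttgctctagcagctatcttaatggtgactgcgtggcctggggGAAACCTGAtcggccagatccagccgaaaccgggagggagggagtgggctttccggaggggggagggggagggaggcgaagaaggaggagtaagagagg
The Six4 window held a MEF3 match on its other strand, beginning 99 bases before the start, and no CCAAT. The Six2 window held CCAAT beginning 87 bases before the start, and no MEF3 match. Of 32536 windows of this length in the table, 0.378% held TCAGGTTTC, 33.8% CCAAT and 12.3% TATAAA. Among the 10 windows of the 7 members in the table, this MEF3 match was the only one, while 3 held CCAAT and 1, of Dach2, held TATAAA. The second Six4 window held CCAAT and no MEF3 match. The GC content was 64.8% in the Six2 window and 62% in the Six4 window, beside a median of 52.4% over all windows. A match is a run of letters, and binding was not measured.

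Values below are log2 processed signals minus the 75th percentile of their array, so positive values lie among the brighter probes of an array. A probe counted as measured where the scanner software marked it well above background. On the array labelled heart 2, 99.3% of spots were well above background, against 47.3% to 55.2% on the other 5 arrays. It correlated with each of them at 0.742 to 0.764, and those 5 with each other at 0.957 to 0.988. The array labelled tail 1 went against its label. At 2918 of the 2956 features that differed between heart 1 and 3 and tail 2 and 3 it lay nearer to the heart pair, and at 38 nearer to the tail pair. Comparisons are therefore given for the 6 arrays by label, for 5 without heart 2, and for heart 1 and 3 against tail 2 and 3. Tail 1 was left out because of its measured values, which makes the p-values of the 4-array comparison smaller than they should be. Every array kept its labelled group. The fibroblast genes Col1a1, Col1a2, Col3a1, Vim, Pdgfra, Ddr2, Thy1, Dcn and Lum were well above background on all 6 arrays.

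Six2 and Eya2 were higher and Six4 was lower in heart 1 and 3 than in tail 2 and 3, and the other Six-family and Eya members differed less and were not called. Of the 9 members 7 passed the filter on dim probes, each with 1 probe, and 3 of the 7 were called by limma in the 4-array comparison. Over all features tested the share called was 14.4%, with 7.75% higher and 6.63% lower in heart. By label, none of the 7 was called with all 6 arrays (0% of all features, and 2.2% at an unadjusted p under 0.05, where no member stood), nor with the 5 arrays without heart 2 (0% and 2.85%, where Six4 was the only member). The smallest adjusted p of any feature was 0.274 with 6 arrays and 0.673 with 5. On the 4 arrays the median absolute log2 difference was 0.47 over the 7 tested members and 0.32 over all features. The 2 pairs of arrays did not overlap for 6 of the 7, a separation that 62.5% of all features showed. An unadjusted p under 0.05 was reached by 4 of the 7, and by 28.7% of all features. The authors' deposited table, which lists 433 probes with absolute folds from 2.00 upwards, holds none of the 9 members. The sources used here do not say how its probes were chosen.

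**Figure D1:**
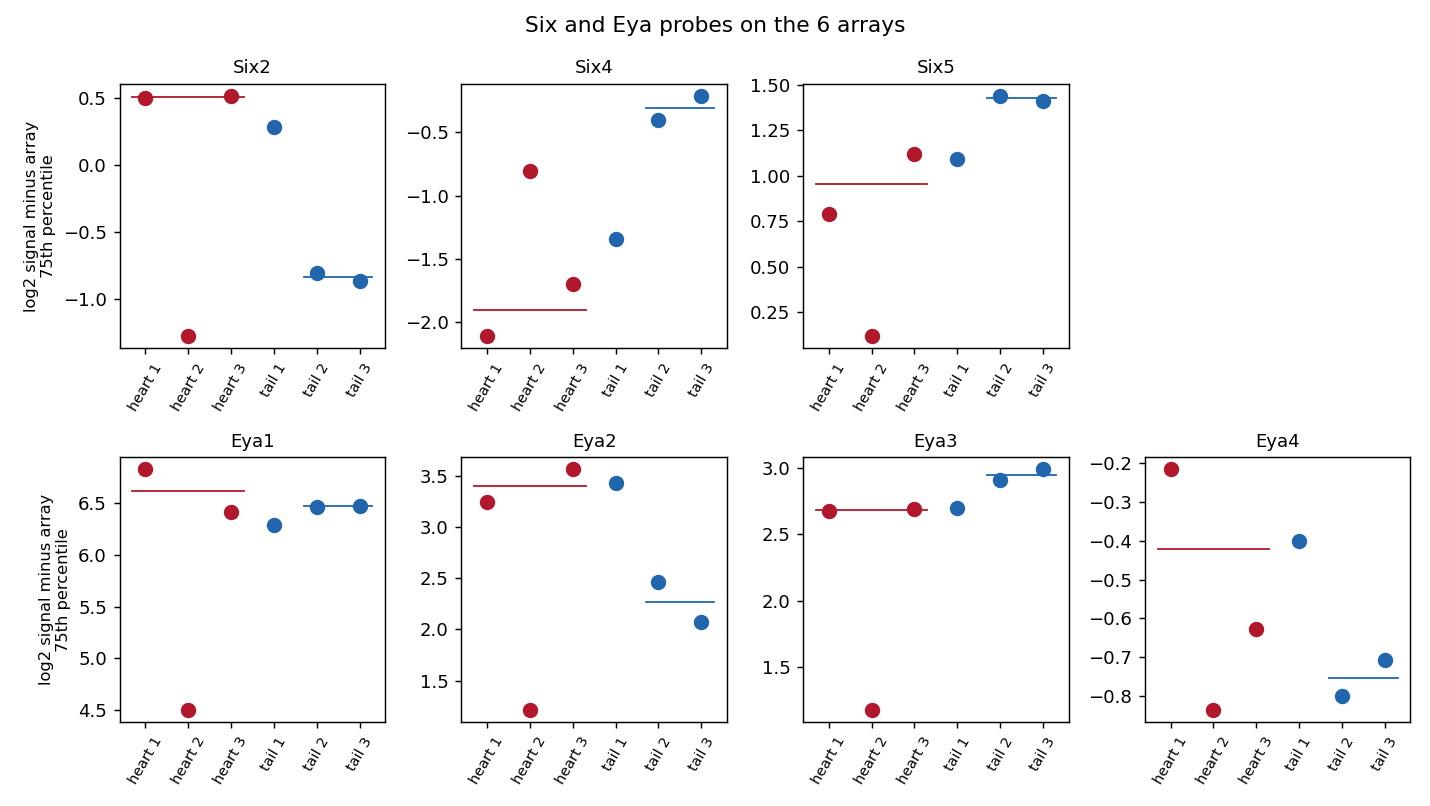
Log2 signal minus the array's 75th percentile (vertical axis) of the tested probe of 7 Six-family and Eya members, on each of the 6 arrays (red heart, blue tail). All points were well above background; red lines are means of heart 1 and 3 and blue lines means of tail 2 and 3. For Six2, Six4 and Eya2 the array labelled tail 1 sits nearer to the red line than to the blue one.

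Six2, which keeps kidney progenitor cells from differentiating, had log2 values of 0.50 and 0.51 on heart arrays 1 and 3, against -0.81 and -0.87 on tail arrays 2 and 3. Within each pair the arrays differed by at most 0.06. On heart 2 the probe read -1.28, below all the others, and on tail 1 it read 0.28, close to the heart pair. The 4-array log2 difference was 1.35 (SE 0.14, 95% interval 0.97 to 1.72, limma adjusted p = 0.00731), a 2.54-fold higher signal in heart. Without tail 2 or tail 3 the adjusted p was 0.0758 and 0.0864, and with no filter on dim probes it was 0.0884. With 5 arrays the difference was 0.97 (SE 0.40, adjusted p = 0.697), and with all 6 it was 0.38 (SE 0.62, adjusted p = 0.767).

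A second Six2 probe, A_51_P354224, did not pass the filter and was not tested. Its log2 values were -3.73 on heart 1, where it was well above background, and -4.44 on heart 3, against -5.86 and -5.89 on tail arrays 2 and 3. On heart 3, tail 2 and tail 3 it was not well above background. Heart 2 gave -1.93 and the array labelled tail 1 gave -4.43, both well above background. Heart 1 was thus the single array of these 4 that measured it.

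Six4, which acts in muscle development and binds MEF3 sites, ran the other way. Its log2 values were -2.11 and -1.70 on heart arrays 1 and 3, against -0.41 and -0.21 on tail arrays 2 and 3. On heart 2 the probe read -0.80 and on tail 1 it read -1.34, so heart 2 lay nearer to the tail pair and tail 1 nearer to the heart pair. The 4-array log2 difference was -1.60 (SE 0.21, 95% interval -2.15 to -1.05, adjusted p = 0.0126), a 3.03-fold lower signal in heart. Without tail 2 or tail 3 the adjusted p was 0.0604 and 0.0809, and with no filter on dim probes it was 0.105. With 5 arrays the difference was -1.25 (SE 0.40, unadjusted p = 0.0248 from limma, adjusted p = 0.697), and with all 6 it was -0.88 (SE 0.53, adjusted p = 0.714).

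Six5, which lies beside the myotonic dystrophy kinase gene Dmpk, read lower on the heart pair but was not called. Its log2 values were 0.79 and 1.12 on heart arrays 1 and 3, against 1.44 and 1.41 on tail arrays 2 and 3. Heart 2 read 0.12 and tail 1 read 1.09. The 4-array difference was -0.47 (SE 0.18, 95% interval -0.94 to -0.00058, limma unadjusted p = 0.0498, adjusted p = 0.174). In absolute size it exceeded the difference of 65.2% of all features.

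Of the Eya coactivators, Eya2, which works with Six-family proteins in the nucleus, was called. Its log2 values were 3.24 and 3.56 on heart arrays 1 and 3, against 2.46 and 2.07 on tail arrays 2 and 3. Heart 2 lay lowest at 1.21, and tail 1 read 3.43, between the 2 heart values. The 4-array log2 difference was 1.13 (SE 0.22, 95% interval 0.55 to 1.72, adjusted p = 0.0383), a 2.20-fold higher signal in heart. This call was the least firm of the 3, because it was lost without any 1 of the 4 arrays (adjusted p from 0.0542 without heart 1 to 0.244 without tail 3), and with no filter on dim probes (adjusted p = 0.213). With 5 arrays the difference was 0.75 (SE 0.44, adjusted p = 0.697), and with all 6 it was 0.02 (SE 0.70, adjusted p = 0.99).

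Eya1, mutated in human branchio-oto-renal syndrome, did not separate the tissues. Its log2 values were 6.83 and 6.41 on heart arrays 1 and 3, against 6.47 and 6.48 on tail arrays 2 and 3, and the 2 pairs overlapped. Heart 2 read 4.50 and tail 1 read 6.29, and the probe was marked saturated on 0 arrays. The 4-array difference was 0.15 (SE 0.20, 95% interval -0.37 to 0.67, adjusted p = 0.659).

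Eya3, which also acts in the response to DNA damage, read 2.67 and 2.70 on heart arrays 1 and 3, against 2.91 and 2.99 on tail arrays 2 and 3. Tail 1 read 2.70 and heart 2 read 1.17. Eya3 was the tested member whose 3 heart and 3 tail arrays did not overlap, yet the highest heart value lay at 2.695 and the lowest tail value at 2.702. That lowest tail value came from tail 1, the array that went against its label. The share of all features that separate in this way on 6 arrays was not computed. The 4-array difference was -0.27 (SE 0.14, 95% interval -0.65 to 0.11, adjusted p = 0.291).

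Eya4, mutated in human hearing loss that can occur with dilated cardiomyopathy, read -0.22 and -0.63 on heart arrays 1 and 3, against -0.80 and -0.71 on tail arrays 2 and 3. Tail 1 read -0.40, between the heart values, and heart 2 read -0.84. The 4-array difference was 0.33 (SE 0.20, 95% interval -0.19 to 0.86, adjusted p = 0.336). The gap between heart 1 and heart 3, 0.41, was larger than this difference.

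**Figure D2:**
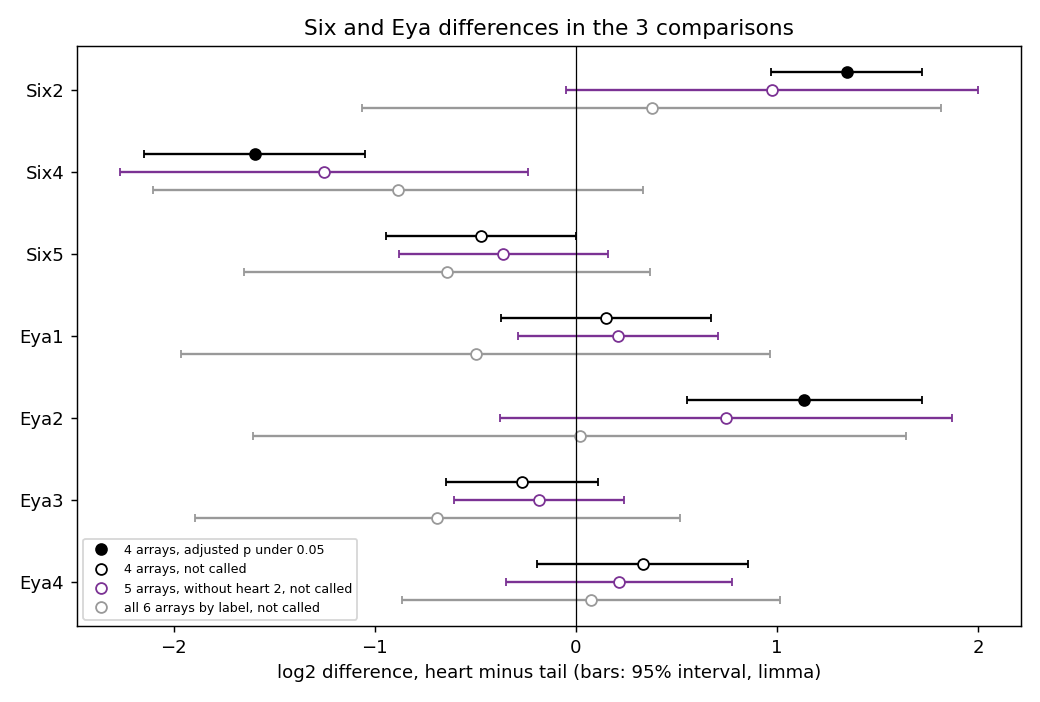
Log2 difference, heart minus tail (horizontal axis), of each tested Six-family and Eya member in the 4-array (black), 5-array (purple) and 6-array (grey) comparisons. Bars are 95% intervals from limma and filled points have an adjusted p under 0.05. Six2, Eya2 and Six4 are filled in the 4-array comparison, and no point is filled in the other comparisons.

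The Dach corepressors were at or near background outside heart 2. Dach1, which represses transcription driven by Six-family proteins, and its relative Dach2 had no probe that passed the filter, so neither was tested. The array labelled heart 2 gave all 5 Dach probes as well above background, like nearly all of its spots. The Dach1 probe A_55_P1959763 had -5.28 and -5.93 on heart arrays 1 and 3, against -6.57 and -5.87 on tail arrays 2 and 3, all not well above background. On tail 1 it had -4.38 and was well above background. The other Dach1 probe was not well above background on any array but heart 2.

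A single Dach2 probe, A_55_P1956534, was brighter on the tail pair. Its log2 values were -7.15 and -6.03 on heart arrays 1 and 3, against -3.93 and -3.71 on tail arrays 2 and 3, and of these 4 arrays only tail 2 was marked well above background. Tail 1 read -7.05 and heart 2 read -3.19. The tail pair's mean was 1.59-fold above the mean of the lowest signals well above background on heart arrays 1 and 3. As tail 3 was not well above background, this is no lower bound. With no filter on dim probes it was not called on the 4 arrays (limma adjusted p = 0.113). Without tail 3 it entered the test through tail 2 alone, and its adjusted p of 0.0492 there sets a lone tail array against heart values not well above background. The other 2 Dach2 probes were not well above background on any of the 5 arrays, so the 3 probes did not read alike.

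**Figure D3:**
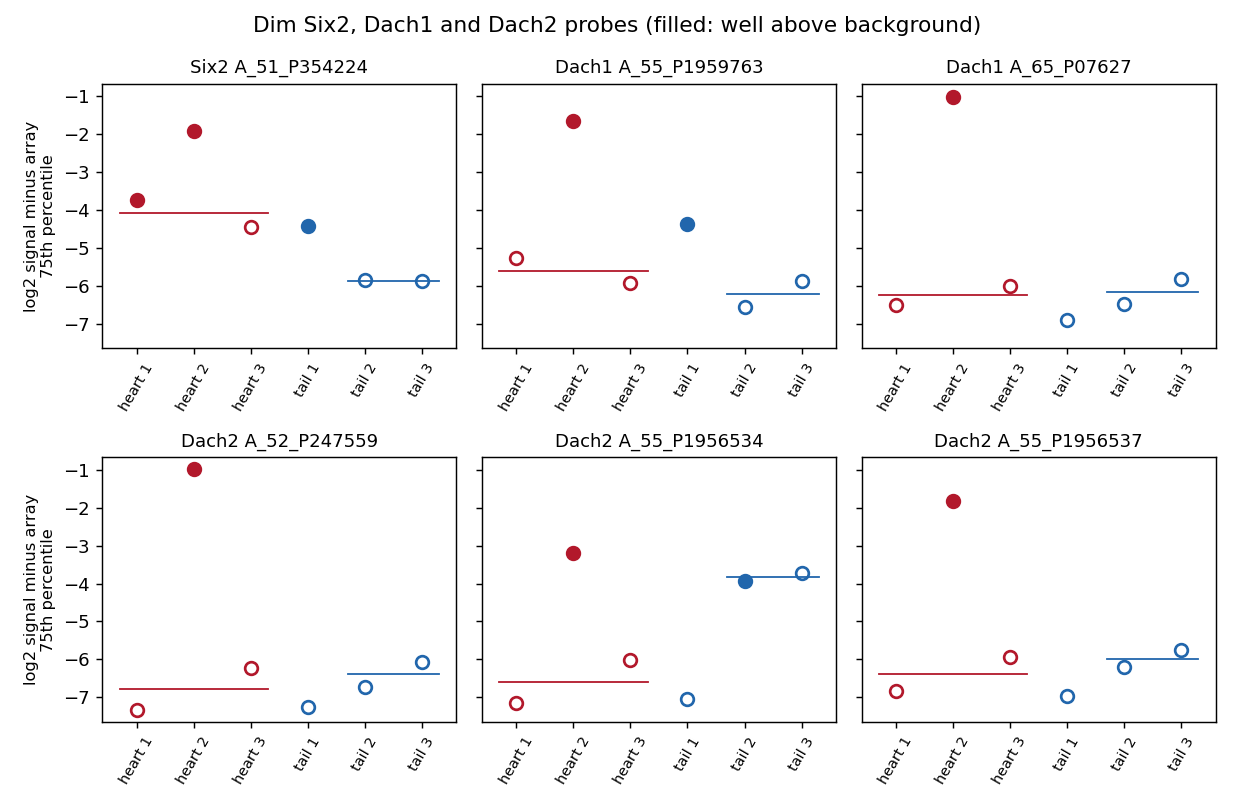
Log2 signal minus the array's 75th percentile (vertical axis) of the untested Six2, Dach1 and Dach2 probes on the 6 arrays (red heart, blue tail; red lines heart 1 and 3, blue lines tail 2 and 3). Filled points were well above background, which on heart 2 held for all 6 probes and on the other arrays for few of them.

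Across the 7 tested members, the array labelled tail 1 lay nearer to the heart pair for 6 and nearer to the tail pair for Eya1. The array labelled heart 2 lay nearer to the tail pair for 5, but it was below every other array for 6 of the 7, Six4 being the exception. That low position followed subtraction of the 75th percentile, which was 11.18 on heart 2 and 8.59 to 9.26 on the other 5 arrays. Before scaling, heart 2 gave the highest signal for Six2 (955), Six5 (2519), Eya3 (5233) and Eya4 (1301), though not for Eya1 or Eya2. The share of all features with heart 2 lowest was not computed. Over the 2850 called features with a value on heart 2, that array lay nearer to the tail pair at 1619 and nearer to the heart pair at 1231, a more even split than for tail 1. For Six2, Six4 and Eya2, the 3 called members, both arrays lay nearer to the pair of the other label.

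Six6, an eye and pituitary factor that is not a member, was well above background on heart 2 alone. Six3, a forebrain and eye factor that is not a member and is adjacent to Six2 on chromosome 17 in the GRCm38.p6 annotation, was well above background on heart 1 and heart 2 and was not tested.

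Further neighbours of members were set beside them after their values were seen. Eya4 is adjacent to Tcf21, a factor that marks the epicardium and the fibroblasts of the heart, on chromosome 10. Tcf21 had log2 values of 5.37 and 5.28 on heart arrays 1 and 3, against -5.45 and -5.64 on tail arrays 2 and 3, where it was not well above background, while Eya4 differed by 0.33. The Tcf21 signal was at least 765-fold higher in heart on this scale (adjusted p = 0.000548). Eya1 is adjacent to Msc, a repressor of muscle genes, on chromosome 1. Msc had -1.39 and -1.53 on heart arrays 1 and 3, against -6.49 and -5.82 on tail arrays 2 and 3, where it was not well above background either, while Eya1 differed by 0.15. The Msc signal was at least 6.92-fold higher in heart on this scale (adjusted p = 0.00158). Dmpk, the neighbour of Six5, did not pass (0.13, SE 0.28, adjusted p = 0.788). Of the 16 neighbours of Six2, Six5 and the Eya and Dach members 12 were tested, 3 were higher in heart (Tcf21, Msc and the platelet-activating factor receptor gene Ptafr) and 1 was lower (Klhl1, next to Dach1). Over all features tested the share called was 14.4%, with 7.75% higher and 6.63% lower in heart. The 3 higher neighbours were tested through the heart arrays alone. No neighbour of Six2 or Eya2 was called.

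Pax genes act upstream of the network in several organs. Of 9 on the array 3 were tested and 3 were lower in heart, beside 6.63% of all features tested. Pax9, a factor of the sclerotome and pharyngeal pouches, was at least 21.2-fold lower in heart on this scale (adjusted p = 0.00062) and was tested through the tail arrays alone. Its log2 difference was -3.03 with normexp background correction and -3.24 with its dimmest tested probe, both smaller than that bound. Pax1, also of the sclerotome, differed by -4.03 (SE 0.22, adjusted p = 0.00155), and Pax3, of muscle and neural crest precursors, by -1.03 (SE 0.15, adjusted p = 0.0184). The call of Pax3 was lost without tail 2 or tail 3 (adjusted p = 0.135 and 0.205). Pax4, Pax5, Pax6, Pax7 and Pax8 were well above background on heart 2 alone, and Pax2 on heart 2, tail 1 and tail 2. The median difference of the 3 tested Pax genes was -4.03, beside -0.07 over all features, and was the same with Pax9 at its bound.

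Of 13 cofactors of Six-family and Eya proteins, all tested, 1 was higher and 2 were lower in heart. These 3 are 23.1% of the list, beside 14.4% of all features, and the list's median difference was -0.19. Sobp, a nuclear protein that binds Six-family proteins, was higher in heart by 1.90 (SE 0.20, adjusted p = 0.00752). The Groucho corepressors Tle1 and Tle2 differed by -0.94 and -0.99 (adjusted p = 0.0191 and 0.0469), and neither call held without tail 2 or tail 3 (adjusted p from 0.183 to 0.275). Tle2 also missed the threshold once slide row was a block (adjusted p = 0.0535), under quantile normalization (0.0569) and with its dimmest tested probe (0.0624). Of the Dach relatives, the corepressor Ski was lower in heart (-1.04, SE 0.17, adjusted p = 0.0254; 0.176 without tail 2 and 0.199 without tail 3), and Skil was not called (0.69, adjusted p = 0.212).

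Genes that act with Eya1 and Six2 in kidney progenitors were called in both directions, each through signal in 1 tissue alone. Of 7 on the array 6 were tested, 3 lower and 1 higher in heart. These are 66.7% of those tested, beside 14.4% of all features. Hoxc11 and Hoxa11, which activate Six2 together with Eya1 in the embryonic kidney, were at least 70.5-fold and 40.8-fold lower in heart (adjusted p = 0.000548 and 0.00121). The kidney and limb factor Sall1 was at least 1.83-fold lower (adjusted p = 0.0198, but 0.0501 without tail 3). Wt1, a factor of kidney and epicardium, was at least 7.08-fold higher in heart (adjusted p = 0.00251). With normexp background correction the log2 differences were smaller than these bounds for Hoxc11 (-4.42), Hoxa11 (-3.79) and Wt1 (1.83). Osr1, an early kidney and heart factor, differed by -1.83 (SE 0.44) and missed the threshold (adjusted p = 0.0663), and Cited1 differed by 0.14. The count of lower genes in this list was 4 under median scaling, normexp, the slide row block and the variance trend. Hoxc11, Hoxa11 and Sall1 passed the filter through the tail arrays alone, and Wt1 through the heart arrays alone. The direction of each call thus followed from the tissue that let the gene into the test. None of them was tested when signal was required on every array, where 2 genes of the list were tested and 0 were called.

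Of 11 known targets of Six-family and Eya proteins, 7 were tested, 3 were lower in heart and 0 were higher. These 3 are 42.9% of those tested, beside 14.4% of all features. The list's median difference was -0.77, beside -0.07 over all features. Under normexp 4 were lower and 1 was higher. With signal required on every array 6 were tested, of which 2 were lower and 1 was higher. The growth factor gene Gdnf differed by -2.74 (SE 0.16, adjusted p = 0.00179), and the cyclin gene Ccnd1 by -1.56 (SE 0.17, adjusted p = 0.00825; 0.0568 without tail 2 and 0.0679 without tail 3). The muscle regulator Myog, tested through the tail arrays alone, was at least 2.9-fold lower (adjusted p = 0.015, and 0.052 without heart 1). Its log2 difference under normexp was smaller, at -1.20. No gene of these network lists was called with all 6 arrays by label, where Pax9, Hoxa11, Hoxc11, Sall1 and Myog did not pass the filter. On 4 arrays with no filter on dim probes, the calls of Pax3, Ski, Tle1, Tle2, Sobp, Sall1, Myog and Ccnd1 were lost (adjusted p from 0.076 for Sobp to 0.25 for Tle2), and those of Pax1, Pax9, Gdnf, Hoxa11, Hoxc11 and Wt1 were kept. In the plot of network differences, the points of Pax9, Hoxa11, Hoxc11, Sall1, Myog and Wt1 show measured signals, with 1 tissue not well above background.

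**Figure D4:**
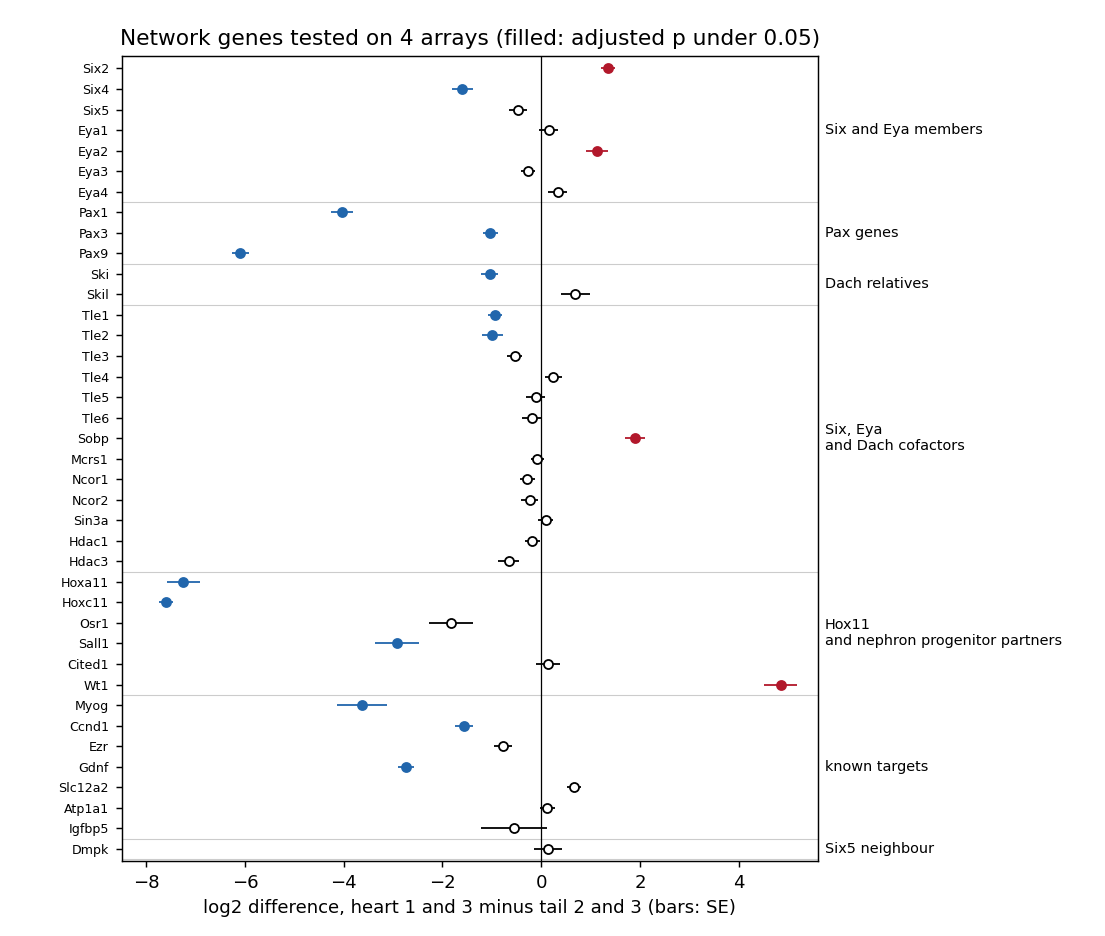
Log2 difference, heart 1 and 3 minus tail 2 and 3 (horizontal axis), of the tested members and of the tested genes of each network list, with SE as bars. Filled points have an adjusted p under 0.05 (red higher in heart, blue lower). The Pax, Hoxa11 and Hoxc11 points lie to the left, Wt1 lies to the right, and most cofactors lie near 0.

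Markers of fibroblasts and of other cells differed between the tissues. The counts below stand beside 14.4% of all features called, 7.75% higher and 6.63% lower in heart. Of the 9 fibroblast markers 4 were higher in heart, among them Lum (7.72-fold, adjusted p = 0.0062) and Pdgfra (3.20-fold, adjusted p = 0.00655), and 1 was lower, Thy1 (3.69-fold, adjusted p = 0.00375). All 6 tendon markers were lower in heart, with summed linear levels relative to the 75th percentile of 4.02 and 5.72 on heart arrays 1 and 3, against 499 and 457 on tail arrays 2 and 3. Tail 1 was at 7.43, near the heart pair. Thbs4, a matrix protein of tendon, gave 93% and 93.6% of the sum on tail 2 and 3. Of 11 skeletal muscle markers 5 were tested and 4 were lower in heart, with summed levels of 16.7 and 13.1 on heart arrays 1 and 3, against 47.2 and 41.8 on tail arrays 2 and 3. Acta1, skeletal muscle actin, gave 93.5% to 97.3% of the sum on each of these 4 arrays. The muscle markers Pax7, Myf5, Myf6, Ckm and Mylpf were not well above background on any array but heart 2. Of 4 mesothelium markers, 3 were tested and 2 were higher in heart, with summed levels of 0.888 and 0.655 on heart arrays 1 and 3, against 0.13 and 0.0714 on tail arrays 2 and 3. Leukocyte markers were higher in heart for 4 of 4 tested, with summed levels of 18.3 and 32.4 on heart arrays 1 and 3, against 4.32 and 3.29 on tail arrays 2 and 3. Endothelial markers were higher in heart for 3 of 5, yet their summed levels overlapped. These were 15.0 and 20.1 on heart arrays 1 and 3, against 25.1 and 18.7 on tail arrays 2 and 3. Kdr, which was not called, gave 90.9% to 98.7% of the endothelial sum on each of these 4 arrays. Of 5 cartilage markers 4 were tested, 1 higher and 2 lower in heart, and of 5 cardiomyocyte markers 4 were tested, 1 higher and 1 lower. Of 5 adipocyte markers, all tested, 2 were lower in heart. Their summed levels ran the other way, with 43.0 and 51.8 on heart arrays 1 and 3, against 39.8 and 33.6 on tail arrays 2 and 3. Lpl, which was not called, gave 67.7% and 78.1% of the adipocyte sum on heart arrays 1 and 3. On tail arrays 2 and 3 it gave 52.0% and 56.4%. Of 2 tested Schwann cell markers 1 was lower, S100b. Some of these markers passed the filter through 1 tissue alone. With signal required on each of the 4 arrays, 2 of 2 tested tendon markers, 2 of 3 muscle markers and 3 of 3 leukocyte markers were called. Of all features, 2158 of 18555 tested were called in that setting. Under that filter 1 of 3 tested endothelial markers was called, and 0 mesothelium markers could be tested. Neither of 2 tested keratinocyte markers was called. The part of such cells in the differences of Six2, Six4 and Eya2 was not tested.

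The genes whose 6-array profiles lay nearest to those of Six2 and Six4 were found among 13320 tested genes with a symbol, by the root mean square distance of centred log2 values. For Six2 they were Gm13889 (distance 0.05), Galnt12 (0.11) and Ptgfrn (0.12). For Six4 they were Pgap6 (0.13), Acot2 (0.17) and Tafa5 (0.18). Gm13889 differed by 1.29 between heart 1 and 3 and tail 2 and 3, and Pgap6 by -1.40.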

How the data were processed

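Per the labels, RNA of 6 cultures was read on 1-colour arrays. The deposited spot intensities came from Agilent Feature Extraction 11.0.1.1, per the file headers, with background subtracted and array trends removed but no scaling between arrays. The deposited flags of other kinds (0 or 1 per spot) mark outliers, saturation and signal well above background. The authors' deposited table gives a log2 fold change and a fold ratio of heart over tail, and the sources used here do not state its normalization.

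Outlier spots were left out, spots of a probe were averaged on the log2 scale, and the 75th percentile of an array's non-control probes was subtracted. Probes were named through RefSeq accessions (GRCm38.p6 annotation; 27235 probes matched; the array was designed on mm9). Tests took probes that every array of 1 group or both measured well above background, with the brightest such probe per gene. The groups were compared with limma 3.58.1 in R 4.3.3 (lmFit, then eBayes; two-sided; called at a Benjamini-Hochberg adjusted p under 0.05 over 20196 features on 6 arrays and 20566 on 4), with the fit checked on simulated data. Where every array of 1 group and no array of the other measured a probe well above background, the fold is given as a lower bound. It sets the brighter mean against a mean over the dim arrays. Each dim array enters with the probe's own value or, if higher, the lowest signal well above background on that array. Such a bound holds on this scale alone, and under normexp the differences of Pax9, Hoxa11, Hoxc11, Wt1 and Myog were smaller than theirs. Python 3.11.15, pandas 2.3.3 and matplotlib 3.10.9 read the files and drew the plots. The number of arrays limits the precision.

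The members, the lists and the 4-array comparison were chosen with earlier results of these data known. Named were all members, in each list up to 4 called genes, largest differences first, any Six-family or Pax gene for its detection, and the 3 nearest profiles of the called member with the largest difference in each direction. The chromosomal neighbours were added after their values were seen. Alternatives were other scalings, normexp on median signals (offset 50; no mean signal column was used), other filters and probe rules, the slide row or replicate number as a block, a variance trend, array weights, and leaving out each array. Some results are not reported here.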

Additional observations from a re-analysis of the deposited data

How the results depend on the processing

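With all 6 arrays, 0 features and 0 of the 7 tested members passed in limma, and 445 features had an unadjusted p under 0.05. With the replicate block 44 features and 0 members passed; same-numbered arrays deviated from their group means with correlations of 0.177, 0.238 and -0.311 over 25499 probes, so the numbers were not taken to pair cultures, and neither heart 2 nor heart 3 correlated best with its own number. Array weights gave 2325 features and 2 members, Six2 (log2 difference 1.29) and Six4 (-1.56), both with an adjusted p of 0.0285. Leaving out each of the 6 arrays gave 0 to 217 features (217 without heart 1) and 0 members. In that comparison the direction of some members turned. Under quantile normalization Six2 was at -0.404, Eya1 at 0.169 and Eya4 at -0.4066. Under median scaling, which moved the median of all features to -1.33 from -0.40, Six2 was at -0.5544, Eya2 at -0.9136 and Eya4 at -0.856. With array weights Eya1 was at 0.1259. Without single arrays, Eya2 ran from -0.4268 to 0.7477, Eya4 from -0.0957 to 0.214 and Eya1 from -0.957 to 0.2094.

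For heart 1 and 3 against tail 2 and 3, leaving out 1 array gave 1565 (without tail 3; 1901 without tail 2) to 3948 features (without heart 1) and 0 to 2 members called; the count was 0 without tail 2, 1 (Dach2, tested through tail 2 alone) without tail 3, and 2 (Six2 and Six4) without either heart array. A lone array in a group was assumed to vary like the other group. With no filter on dim probes 714 of 37065 features and 0 members passed, with unchanged differences for the 7. The scalings, stricter filter, probe rules, slide row block and variance trend each called 3 members. Six2 ranged over 1.11 to 1.38, Six4 over -1.81 to -1.29 and Eya2 over 0.94 to 1.33 across 13 alternatives, with no change of direction. Eya1 ran from -0.0599 (without heart 1) to 0.3577. A replicate block could not be fitted to the 4 arrays, which share 1 number. The cause of the changes with array weights, scaling and left-out arrays was not tested.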
